A study of Rattus norvegicus with 72 samples.

Results

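Leukaemia inhibitory factor (LIF), interleukin 6 and oncostatin M signal through receptors that share the chain gp130 (Il6st), and the genes described here are those receptors, the transcription factor STAT3 that they activate, and genes that rise in the mammary gland when it regresses after weaning. The 10 genes named were Lifr, Il6st, Il6r, Osmr, Stat3, Socs3, Cebpb, Cebpd, Cd14 and Lgals3. Their probe sets, the groups of short probes that measure a transcript on the array, were taken where the platform annotation gives a single gene symbol equal to a member. That rule found 16 probe sets for 9 of the 10 genes, out of 20826 single-symbol probe sets for 14217 genes. Osmr, the oncostatin M receptor, had no such probe set and has no value here. The members were selected on measured values: hypergravity against standard gravity in the lactating mammary gland, the mammary change with stage, and Lifr in liver. Those contrasts are therefore given as descriptions without p-values.

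RNA of mammary gland, liver and adipose tissue from female rats was measured on oligonucleotide arrays, each rat being either pregnant or lactating. Standard gravity and hypergravity, a load above that of Earth, were combined with both stages in each of the 3 tissues, which gives 12 groups of 5 arrays from 20 rats. A separate set of 12 arrays held pregnant mammary gland in 3 groups of 4, namely microgravity, a flight control and a vivarium control, and was used only within itself. Strain, age, day of pregnancy or lactation, the size of the load and the length of exposure are not given in the sources used here, and no label says that arrays of different letter in the microgravity set came from different animals. If they did not, p-values there measure only the spread between arrays. Arrays M210H and A210H were left out because the mammary array carried adipocyte markers (10.20) at a milk protein mean of 2.97, and the adipose array the reverse (7.57 and 13.06). The lactating hypergravity groups of mammary gland and adipose tissue thus have 4 arrays.

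The defining markers were present in the labelled tissue. The mean of 5 milk protein genes lay between 12.53 and 13.23 log2 units in the other 19 mammary arrays outside the microgravity set, that of 8 adipocyte genes between 9.56 and 10.69 in adipose tissue, and that of 8 hepatocyte genes between 11.92 and 12.25 in liver. Skeletal muscle or hepatocyte markers exceeded their tissue's median by over 2 log2 units in M52S, M50H, M56H, M212H, A48S, A217H, VIVA and VIVC. Values are log2 signals, array medians ran from 4.32 to 4.56 (4.87 to 5.02 in the microgravity set), and signals near or below them carry little information about a transcript. The number of arrays limits the precision. All arrays are of whole tissue, in which fewer cells of a type and less RNA per cell cannot be told apart.

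As background, LIF binds LIFR together with gp130, and interleukin 6 binds IL6R together with gp130. The bound receptors activate Janus kinases, which phosphorylate STAT3, and SOCS3 inhibits that step. In the mammary gland LIF, acting through STAT3, is known as an early signal of involution, the regression of the secretory tissue after weaning, in which C/EBP delta takes part. CD14, the endotoxin co-receptor, and galectin 3 are known to rise there. In liver, interleukin 6 signalling through STAT3 and C/EBP beta drives acute phase proteins.

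The sequences before the starts of Lifr and Stat3, the receptor and the factor with the largest differences in liver and mammary gland respectively, are shown with CCAAT in capitals (ATTGG where it lies on the other strand), the letters after which the C/EBP proteins were named. They come from RefSeq on the GRCr8 assembly and run 250 bases up to 1 annotated start of each gene, 5′ to 3′ on the gene's strand, at chr2:57963139-57963388 (plus strand) and chr10:86363360-86363609 (minus strand).
Lifr: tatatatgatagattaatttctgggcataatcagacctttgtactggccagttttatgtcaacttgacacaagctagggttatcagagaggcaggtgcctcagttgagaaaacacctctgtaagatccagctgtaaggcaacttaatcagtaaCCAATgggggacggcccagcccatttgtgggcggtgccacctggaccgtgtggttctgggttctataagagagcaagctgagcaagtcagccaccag
Stat3: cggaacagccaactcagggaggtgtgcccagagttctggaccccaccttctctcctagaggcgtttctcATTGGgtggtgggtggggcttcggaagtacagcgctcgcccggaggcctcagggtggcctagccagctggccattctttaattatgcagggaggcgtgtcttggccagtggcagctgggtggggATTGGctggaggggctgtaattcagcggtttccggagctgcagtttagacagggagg
Of the 10 genes 8 had a RefSeq promoter entry. The letters TTCNNNGAA, or the same ends with 1 more base between them, forms of the STAT site that read the same on both strands, were in 0 of these 8 windows, and 13.3% of all 33469 windows of 250 bases hold either form (7.67% and 6.25%). CCAAT on either strand was in 4 of the 8, and in 34% of all windows. The windows of Lifr, Il6st, Il6r, Socs3 and Cd14 lie inside the annotated span of their gene. Sequence before the outermost start of these genes was not searched. The Stat3 window lies partly inside its gene. A match or its absence describes these letters in this window only.

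Lifr, the LIF receptor (gene 81680, chromosome 2, 57951787 to 58020357), was the receptor whose level moved most, and it did so in liver. In pregnant rats at standard gravity liver Lifr was 9.29, 9.73, 9.49, 9.45 and 8.88 log2 units (L42S, L44S, L48S, L52S and L57S). In pregnant rats in hypergravity it was 9.73, 9.51, 9.91, 9.94 and 9.78. The pregnant groups overlapped and were the highest of all groups. Lactating rats at standard gravity had 7.96, 9.24, 7.78, 7.42 and 8.18 (L201S, L202S, L214S, L216S and L219S). Lactating rats in hypergravity had 4.48, 5.57, 6.45, 4.54 and 4.85 (L203H, L206H, L210H, L212H and L217H). Every lactating hypergravity liver lay below every other liver, and L202S, which lay within the pregnant range, made the lactating standard gravity group overlap with the pregnant ones.

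The mean was 9.37 ± 0.31 (SD, n = 5) in pregnancy and 8.12 ± 0.69 (n = 5) in lactation at standard gravity, a log2 difference of -1.25 (SE 0.33, 95% interval -1.94 to -0.56). In hypergravity it was 9.78 ± 0.17 and 5.18 ± 0.83 (n = 5 each), a log2 difference of -4.60 (SE 0.33), or 24.2-fold. That was the 3rd lowest difference of 31042 probe sets. Within lactation the difference between hypergravity and standard gravity was -2.94 (SE 0.33), 7.67-fold lower and the 4th lowest of all probe sets. Within pregnancy it was 0.41 (SE 0.33, interval -0.28 to 1.10). The stage difference in hypergravity exceeded that at standard gravity by -3.35 log2 units (SE 0.47). A second Lifr probe set, dimmer throughout, gave -1.10, -4.10, -2.20, 0.80 and -3.00 for these 5 contrasts in the same order. At adjusted p under 0.05, limma would call the brighter probe set in the hypergravity stage contrast, in the lactation contrast and in the interaction. The lactation call ended when only the 2 groups compared were fitted, and without L202S or L210H the standard gravity stage difference (-1.53 and -1.25) was called. The mean of the hepatocyte markers lay between 11.92 and 12.25 in all 4 liver groups.

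**Figure D1:**
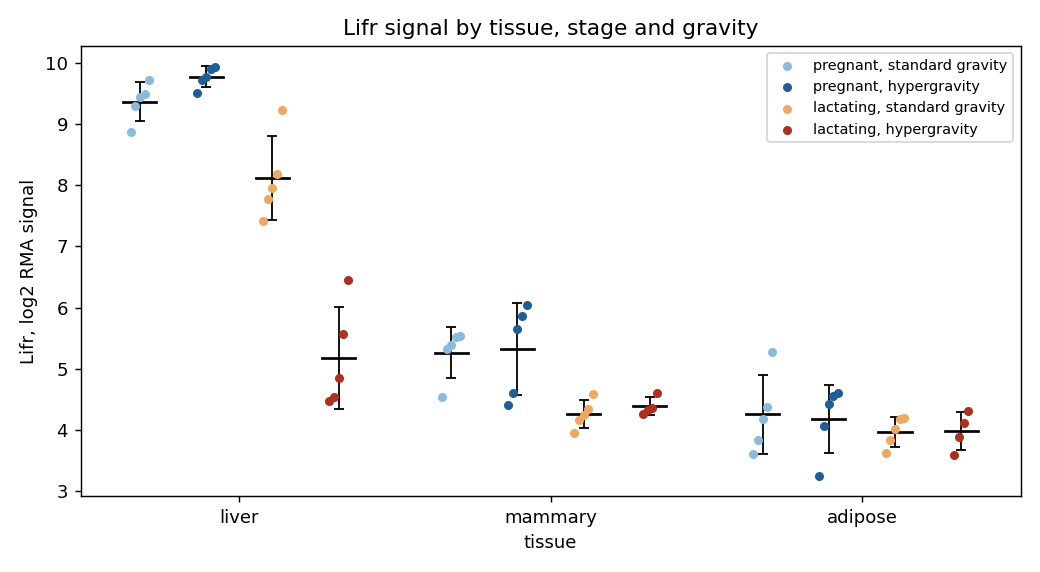
Lifr log2 RMA signal (vertical axis) of each array by tissue (horizontal axis), stage and gravity. Points are arrays, horizontal lines means and error bars SD. The 5 lactating hypergravity livers sit between 4.48 and 6.45, below every other liver. L210H, the highest of these, lies above the mammary and adipose values, and the others lie among them.

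Lifr was low in the other tissues. Mammary values ran from 4.41 to 6.04 in pregnancy in hypergravity, from 4.54 to 5.54 in pregnancy at standard gravity, from 3.95 to 4.59 in lactation at standard gravity and from 4.26 to 4.60 in lactation in hypergravity. The lactating levels lie near the array medians. The stage difference was -1.0 (SE 0.28) at standard gravity and -0.93 (SE 0.29) in hypergravity, while the dimmer probe set gave 0.09 and -0.08. Adipose values ran from 3.25 to 5.28 over the 4 groups, and no adipose contrast of Lifr exceeded 0.29 log2 units in size. In the order of the 12 group means, neighbouring groups overlapped except at 1 step, that from lactating standard gravity liver (8.12) to pregnant hypergravity mammary gland (5.32). Lactating hypergravity liver (5.18) stood in 6th place, between pregnant and lactating mammary gland.

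None of the other 8 genes passed the test in liver. For lactation against pregnancy at standard gravity 0 of 8 were called by limma (smallest adjusted p = 0.25, against 0.622% of all probe sets called). In hypergravity 0 of 8 were called (smallest adjusted p = 0.14, 3.23% of all). Hypergravity against standard gravity gave 0 of 8 in pregnancy (adjusted p = 0.4, 0.103% of all) and 0 of 8 in lactation (adjusted p = 0.23, 0.406% of all). The interaction gave 0 of 8 (adjusted p = 0.73, 0.126% of all). At an unadjusted p under 0.05 the 5 liver counts were 1, 1, 2, 1 and 0 of 8, and those of all 31042 probe sets 3382, 5003, 2507, 4238 and 3500.

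The partner chain Il6st, which the LIF receptor needs (gene 25205, chromosome 2, 45798872 to 45839501), stayed between 10.21 and 11.09 in all 20 livers. Its lactation difference between gravities was 0.08 (interval -0.25 to 0.41). The interleukin 6 receptor Il6r (gene 24499, chromosome 2, 177582020 to 177646705) ran from 7.40 to 9.18, with -0.27 (interval -0.77 to 0.23). Stat3 (gene 25125, chromosome 10, 86311528 to 86363513) ran from 6.44 to 8.48 in liver, with -0.00 (interval -0.63 to 0.63). Cd14 had the smallest p of the 8. It was 7.24 to 7.86 in pregnancy at standard gravity, 7.53 to 8.49 in pregnancy in hypergravity, 7.85 to 8.70 in lactation at standard gravity and 8.29 to 9.38 in lactation in hypergravity. The groups overlapped in each of the 4 contrasts, and its differences of 0.62 to 0.63 (SE 0.22) had limma adjusted p of 0.14 to 0.4.

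Other genes of the pathway were counted in lists. In liver, 13 acute phase genes, the products that interleukin 6 and STAT3 drive there, had 0 calls in 4 of the 5 contrasts and 1 higher in lactation against pregnancy in hypergravity (1.83% of all genes higher, 2.54% lower). Their median difference in that contrast was -0.06, against 0.02 over all genes. Of 19 other STAT3 response and involution genes 0 were higher and 2 lower in lactation at standard gravity (0.324% and 0.408% of all genes). They were the immediate early genes Fos (5.17 against 7.36, log2 difference -2.19, SE 0.42, limma adjusted p = 0.015) and Junb (3.95 against 4.94, -0.98, SE 0.14, adjusted p = 0.0011). In hypergravity 1 of the 19 was higher and 1 lower with lactation, and 1 was higher in the interaction. Of 11 kinases, STATs and inhibitors 0 were called in any liver contrast. Of 10 ligands and other receptors of the family 1 was higher in the hypergravity stage contrast and 0 were called in the other 4.

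The genes whose liver signal was most like that of Lifr over the 20 liver arrays, among 8957 genes with a mean above the median of all probe sets, were Sh3gl3 (Pearson r = 0.94), Tmem64 (0.93), Zdhhc14 (0.92) and Limk2 (0.91). Their stage differences were smaller than those of Lifr, from -0.34 to -0.89 at standard gravity and from -1.58 to -2.43 in hypergravity. These arrays share the 4 groups, so the values describe a common pattern over groups.

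In lactating mammary gland Lgals3, Cd14 and Stat3 were higher in hypergravity than at standard gravity, and Cebpd and Cebpb were higher by less. Hypergravity against standard gravity in lactation had 5 of 9 genes called, all higher, where 4.49% of all probe sets were called higher and 4.94% lower. This is the contrast that chose the members. The median of the 9 differences was 0.70, against 0.01 over all probe sets.

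**Figure D2:**
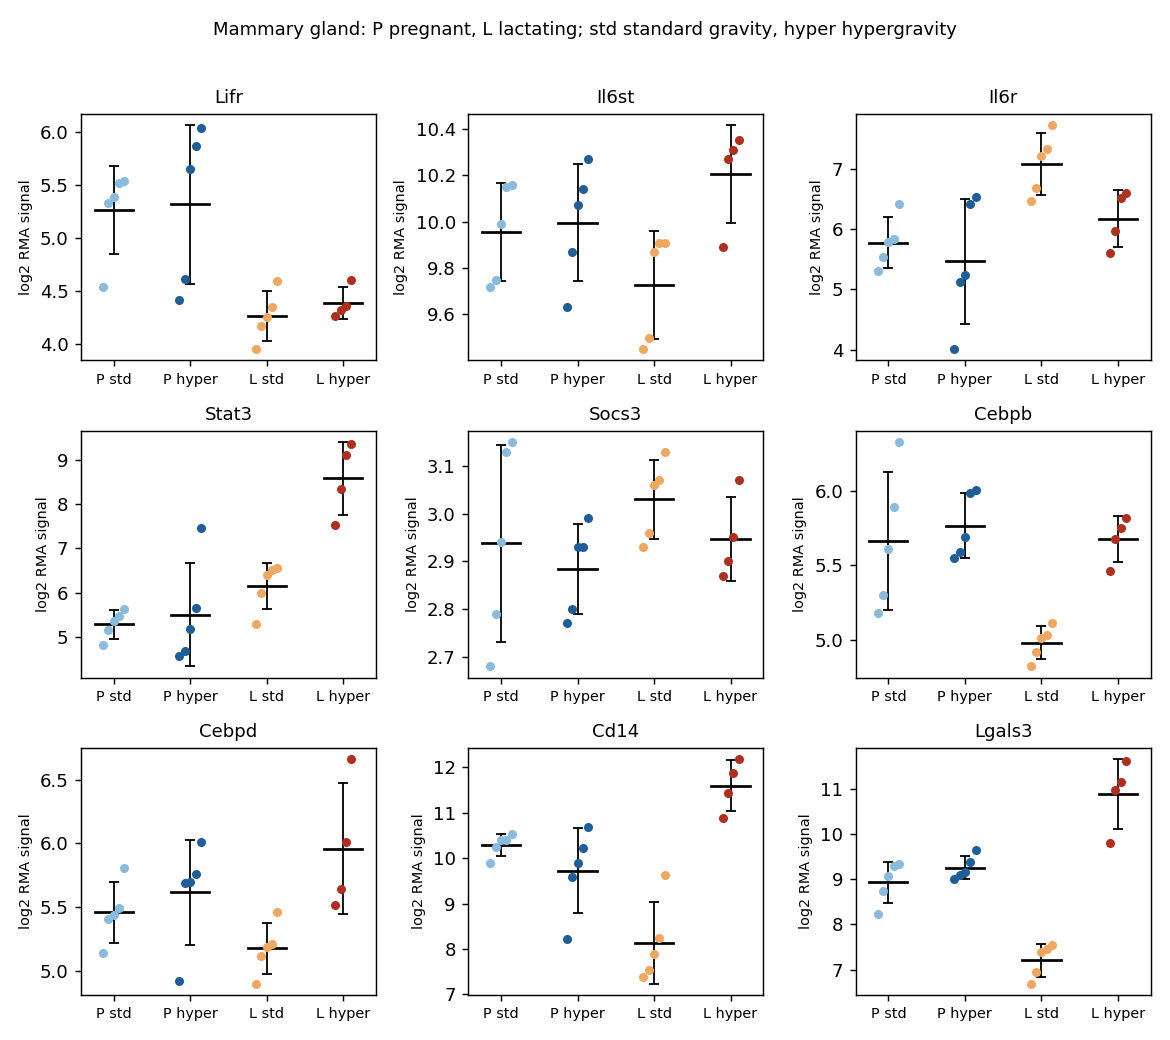
Log2 RMA signal (vertical axes) of the 9 genes in the 4 mammary groups of the standard gravity and hypergravity arrays (horizontal axes). Points are arrays, lines means, bars SD. Lgals3, Cd14, Stat3, Cebpb and Cebpd lie apart between the lactating groups, with hypergravity higher, in the contrast that chose the members. The share of all probe sets that lie apart there was not counted.

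Lgals3, galectin 3, a carbohydrate-binding protein also abundant in macrophages (gene 83781, chromosome 15, 23099795 to 23111731), was 6.94, 7.54, 7.40, 6.69 and 7.45 in lactating mammary gland at standard gravity (M201S, M202S, M214S, M216S and M219S). In hypergravity it was 11.61, 10.97, 9.80 and 11.15 (M203H, M206H, M212H and M217H). The lowest hypergravity array was thus over 2 log2 units above the highest standard gravity array. The log2 difference was 3.68 (SE 0.30, interval 3.04 to 4.31), or 12.8-fold. In pregnancy it lay between, at 8.24 to 9.33 at standard gravity and 9.01 to 9.64 in hypergravity. Lactation therefore stood below pregnancy at standard gravity (-1.73, SE 0.28) and above it in hypergravity (1.63, SE 0.30), with no overlap of the arrays used in either.

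Cd14 (gene 60350, chromosome 18, 28609558 to 28611409) was 7.54, 7.38, 9.63, 8.23 and 7.89 in lactation at standard gravity in the same order of rats. In hypergravity it was 12.18, 11.88, 10.89 and 11.44, and the groups did not overlap. The difference was 3.46 (SE 0.45, interval 2.52 to 4.41). Pregnant glands had 9.90 to 10.53 at standard gravity and 8.22 to 10.68 in hypergravity. Like Lgals3, Cd14 was lower in lactation than in pregnancy at standard gravity (-2.16, SE 0.42) and higher in hypergravity (1.87, SE 0.45). Among the 12 group means lactating hypergravity mammary gland was the highest for Cd14, and apart from the next group in the arrays used.

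Stat3 in lactating mammary gland was 6.40, 5.29, 6.50, 6.55 and 5.98 at standard gravity and 9.12, 7.54, 8.34 and 9.36 in hypergravity. The groups were apart, with a difference of 2.45 (SE 0.48, interval 1.43 to 3.46), or 5.46-fold. The second Stat3 probe set gave 2.11 (SE 0.33). In pregnancy the brighter probe set lay at 4.80 to 5.62 at standard gravity and 4.56 to 7.46 in hypergravity, where the 7.46 belongs to M56H. That array carried hepatocyte markers at a mean of 9.91, against 3.52 to 3.77 in the other 4 arrays of its group, and liver Stat3 ran from 6.44 to 8.48; their part in its Stat3 level was not tested. The probe sets disagreed about the change with stage: the brighter gave 0.87 (SE 0.46) at standard gravity and 3.09 (SE 0.48) in hypergravity, the other -1.33 (SE 0.31) and 0.87 (SE 0.33). By the second one pregnant standard gravity glands had 7.31 ± 0.43, lactating standard gravity glands 5.98 ± 0.32 and lactating hypergravity glands 8.09 ± 0.44. The higher level in lactating hypergravity glands was common to both.

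Both C/EBP factors differed less. Cebpd, C/EBP delta (gene 25695, chromosome 11, 98268856 to 98269994), was 5.46, 5.19, 5.12, 5.21 and 4.90 in lactation at standard gravity and 6.01, 5.64, 5.52 and 6.66 in hypergravity, a difference of 0.78 (SE 0.23). Its other probe sets gave 0.55 and 0.43 and lay at 3.24 to 4.77. Cebpb, C/EBP beta (gene 24253, chromosome 3, 176817005 to 176818436), was 5.11, 4.82, 4.92, 5.03 and 5.01 at standard gravity and 5.68, 5.46, 5.75 and 5.82 in hypergravity, a difference of 0.70 (SE 0.19). Pregnant glands had 5.18 to 6.33 for Cebpb, which its lactating hypergravity level overlapped (-0.09, interval -0.48 to 0.30) and its lactating standard gravity level did not (-0.68, SE 0.18). The calls of these factors in the lactation contrast were not firm: the count of called genes was 3 with trend and robust settings, and 3 without M203H, M217H or M202S, leaving Lgals3, Cd14 and Stat3. Both factors also lost their calls with M210H and A210H kept in their labelled groups (0.61 for Cebpd and 0.58 for Cebpb). M210H, which carried adipocyte markers, had Cebpd at 5.10 and Cebpb at 5.08. Cebpd lost its call without M214S, M216S or M219S as well, and Cebpb without M212H.

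The inhibitor Socs3 (gene 89829, chromosome 10, 103692579 to 103695975) lay between 2.68 and 3.15 in these mammary arrays, below all array medians, with a lactation difference of -0.08 (interval -0.31 to 0.14). At that signal the array may not register a change.

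The receptors showed smaller differences in the gland. Il6st was 9.91, 9.50, 9.87, 9.45 and 9.91 in lactation at standard gravity and 10.27, 9.89, 10.35 and 10.31 in hypergravity, a difference of 0.47 (SE 0.16) that was not called. Its 4 probe sets gave 0.47, 0.98, 0.67 and 0.61 for this contrast. For lactation against pregnancy at standard gravity they gave -0.22, 0.10, -1.17 and 1.29, and so no common direction. Il6r was the member higher in lactation at standard gravity, at 7.33, 6.46, 7.21, 6.68 and 7.73 against 5.30 to 6.42 in pregnancy (1.30, SE 0.39). In lactating hypergravity glands Il6r was 6.52, 6.60, 5.97 and 5.60, a difference of -0.91 (SE 0.42) from standard gravity that was not called. Lifr differed by 0.12 (interval -0.50 to 0.74).

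For lactation against pregnancy the counts were 1 of 9 higher (Il6r) and 4 lower (Cd14, Lgals3, Lifr and Cebpb) at standard gravity, where 16.8% of all probe sets were called higher and 17.3% lower. In hypergravity they were 3 higher (Stat3, Cd14 and Lgals3) and 1 lower (Lifr), where 14.6% were called in each direction. The Lifr call in hypergravity ended without any 1 of M59H, M50H, M60H, M203H, M212H and M206H, and when only the groups compared were fitted. These contrasts share the lactating arrays with the contrast that chose the members.

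Pathway genes outside the 10 were counted in the same mammary contrast, hypergravity against standard gravity in lactation, as a description. Of 19 other STAT3 response and involution genes 10 were called higher and 0 lower, with a median difference of 1.02 against 0.02 over all genes, of which 6.22% were called higher and 6.23% lower. Timp1, an inhibitor of matrix proteases, was 5.10-fold higher (8.51 against 6.16, SE 0.29 on the log2 scale). Tgfb3, a growth factor of early involution, was 4.43-fold higher (9.61 against 7.46, SE 0.41). Fos was 4.21-fold higher (9.68 against 7.61) and Bcl3, a modulator of NF-kappa B, 3.78-fold higher (6.58 against 4.67). At standard gravity the same list had 1 higher and 5 lower in lactation against pregnancy, where 14.4% of all genes were called higher and 25.7% lower. In hypergravity that stage contrast had 9 higher and 3 lower (13.5% and 21.2% of all genes).

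Of 11 kinases, STATs and inhibitors 3 were higher and 0 lower, where 6.22% of all genes were called higher and 6.23% lower. The median difference of this list was 0.00, against 0.02 over all genes. Jak2 was higher by 1.32 (4.96 against 3.65, SE 0.17) and Stat5b by 0.95 (4.88 against 3.93, SE 0.27) on the log2 scale. Their standard gravity levels lay below the array medians. Jak1, the kinase bound to gp130, was higher by 0.65 (10.05 against 9.40, SE 0.17). The 10 ligands and other receptors of the family had 0 calls and a median of 0.01. Of 13 genes of the liver acute phase list 4 were higher in the gland and 0 lower, against 6.22% and 6.23% of all genes. The median difference of these genes was 0.07. Orm1, orosomucoid, was 18.7-fold higher (7.77 against 3.55, the latter below the array medians) and Lbp, the lipopolysaccharide binding protein that hands endotoxin to CD14, 9.47-fold higher (11.34 against 8.10). Serpina3n (2.93-fold) and ceruloplasmin, Cp (2.66-fold), followed.

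Markers of cell types differed between the same groups. Of all genes 6.22% were called higher and 6.23% lower. The mean of 6 luminal epithelium genes (4 keratins, Epcam and Cdh1) was 8.44 to 8.58 in lactation at standard gravity and 9.67 to 10.84 in hypergravity, with 5 of 6 called higher. In pregnancy it was 9.07 to 10.02 at standard gravity and 9.18 to 10.05 in hypergravity. For 10 macrophage markers the mean in lactation was 7.59 to 8.04 at standard gravity against 7.87 to 8.76 in hypergravity (2 of 10 higher). In pregnancy at standard gravity it was 8.71 to 9.10. For 5 neutrophil markers the mean in lactation was 3.75 to 4.18 against 4.68 to 5.87 (2 of 5 higher), and for 5 milk protein genes 13.08 to 13.23 against 12.93 to 13.01. The part of these cell types in the differences of Lgals3, Cd14 and Stat3 was not tested. M212H, with skeletal muscle markers at 7.87, had the lowest Lgals3 and Cd14 of its group. Without arrays carrying markers of another tissue the differences were 4.04 for Lgals3, 3.70 for Cd14, 2.53 for Stat3, 0.92 for Cebpd and 0.68 for Cebpb, the last no longer called.

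Hypergravity in pregnancy was tested, since this contrast was not used in choosing the genes. Its standard gravity arrays also enter the mammary stage contrast that was used, so the test is not independent of that choice. Limma called 0 of 9 (smallest adjusted p = 0.96, against 0.00322% of all probe sets called), and 0 of 9 had an unadjusted p under 0.05. The differences were -0.57 (interval -1.46 to 0.32) for Cd14, 0.32 (-0.28 to 0.91) for Lgals3 and 0.23 (-0.73 to 1.18) for Stat3. For Cebpb it was 0.11 (-0.26 to 0.48), for Cebpd 0.16 (-0.29 to 0.61) and for Il6r -0.31 (-1.14 to 0.52). The Stat3 difference includes M56H at 7.46, the array with hepatocyte markers. The rest of its group had 4.56, 4.67, 5.17 and 5.65, against 4.80 to 5.62 at standard gravity.

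The genes with the mammary pattern most like that of Stat3, over 19 arrays and among 9418 genes chosen likewise, were Klhl24 (r = 0.96), Igf2r (0.94), Kdm5a (0.93) and Fbxl20 (0.93). They differed by 1.72, 0.58, 0.63 and 1.17 between hypergravity and standard gravity in lactation. The arrays share their 4 groups.

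Adipose tissue of the same rats showed no called member. Lactation against pregnancy gave 0 of 9 at standard gravity (smallest limma adjusted p = 0.7, 0.00322% of all probe sets called) and 0 of 9 in hypergravity (adjusted p = 1, 0%). Hypergravity against standard gravity gave 0 of 9 in pregnancy (adjusted p = 1, 0%) and in lactation (adjusted p = 1, 0%), as did the interaction (adjusted p = 1, 0%). At an unadjusted p under 0.05 these counts were 2, 0, 1, 0 and 1 of 9, and those of all probe sets 1852, 1141, 1283, 709 and 1055. The 4 pathway lists had 0 calls in all 5 contrasts.

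The adipose gene with the smallest p was Cd14. It was 8.87, 8.23, 7.63, 8.63 and 8.86 in pregnancy and 9.49, 9.48, 9.24, 8.96 and 9.01 in lactation at standard gravity, groups that did not overlap (0.79, SE 0.26, limma adjusted p = 0.7). The lowest value, 7.63, is that of A48S, which carried skeletal muscle markers at a mean of 12.34, and their part in it was not tested. In hypergravity it was 9.56, 9.40, 8.61, 8.93 and 9.57 in pregnancy and 8.64, 8.38, 9.44 and 8.85 in lactation (-0.39, SE 0.27). The interaction was -1.18 (SE 0.37, adjusted p = 1). Neither adipose difference passed the test, and their signs were opposite to those of Cd14 in mammary gland. Lgals3 was high in all adipose groups, from 8.41 to 10.58, and Stat3 ran from 5.26 to 7.67.

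**Figure D3:**
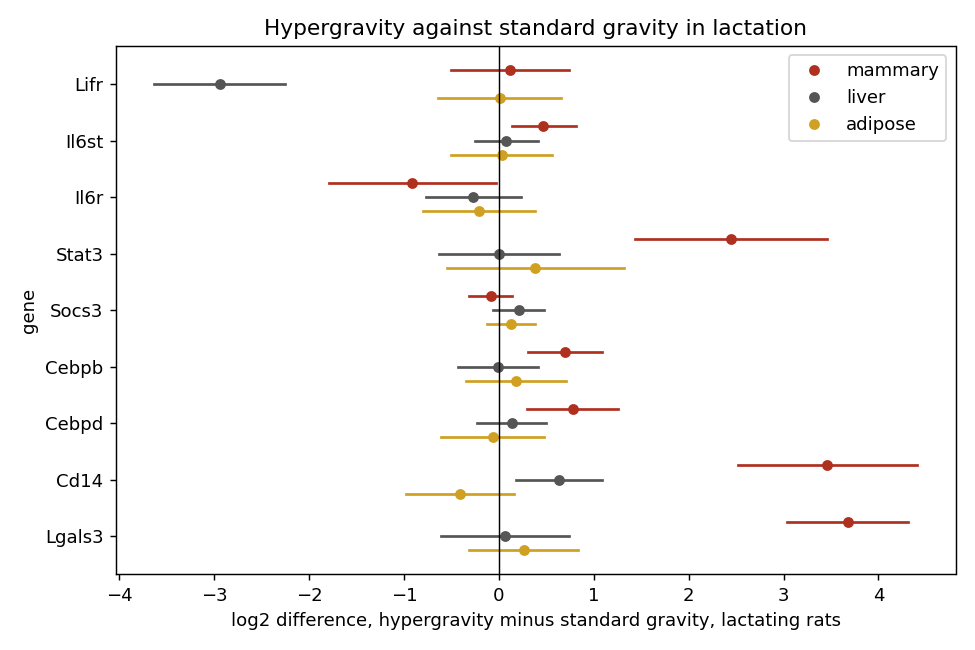
Log2 difference between hypergravity and standard gravity in lactating rats (horizontal axis) for the 9 genes (vertical axis) in 3 tissues. Points are differences of group means and bars 95% intervals of limma; Lifr stands apart in liver (-2.94) and Lgals3, Cd14 and Stat3 in mammary gland (3.68, 3.46 and 2.45), while the adipose intervals include 0.

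The microgravity set held pregnant glands only. Limma called 0 of 9 genes in microgravity against the flight control (smallest adjusted p = 0.27, 0.367% of all probe sets called). It called 0 of 9 against the vivarium control (adjusted p = 0.68, 0.493%) and 0 of 9 between the controls (adjusted p = 0.64, 0.00322%). Unadjusted p under 0.05 was reached by 2, 0 and 0 of 9, and by 4100, 2951 and 2851 of all 31042 probe sets. These 3 comparisons share their groups, and the 4 pathway lists had 0 calls in each.

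Il6r was the gene with the smallest p. It was 7.51, 6.99, 7.20 and 7.04 in microgravity, 6.86, 6.78, 6.74 and 5.35 in the flight control and 6.54, 6.91, 6.58 and 6.79 in the vivarium control. All microgravity arrays lay above all control arrays. The share of all probe sets separated in this way was not counted. The difference from the flight control was 0.75 (SE 0.28, adjusted p = 0.27) and from the vivarium control 0.48 (SE 0.28, adjusted p = 0.68), and FDSD at 5.35 stood apart from its group. For Stat3 the differences were -0.06 (interval -0.52 to 0.41) and 0.09 (-0.37 to 0.56), for Lgals3 0.21 (-0.08 to 0.49) and 0.01 (-0.27 to 0.30), and for Cd14 -0.28 (-0.85 to 0.28) and -0.08 (-0.64 to 0.48). Lifr lay between 5.12 and 5.74 in all 12 arrays.

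**Figure D4:**
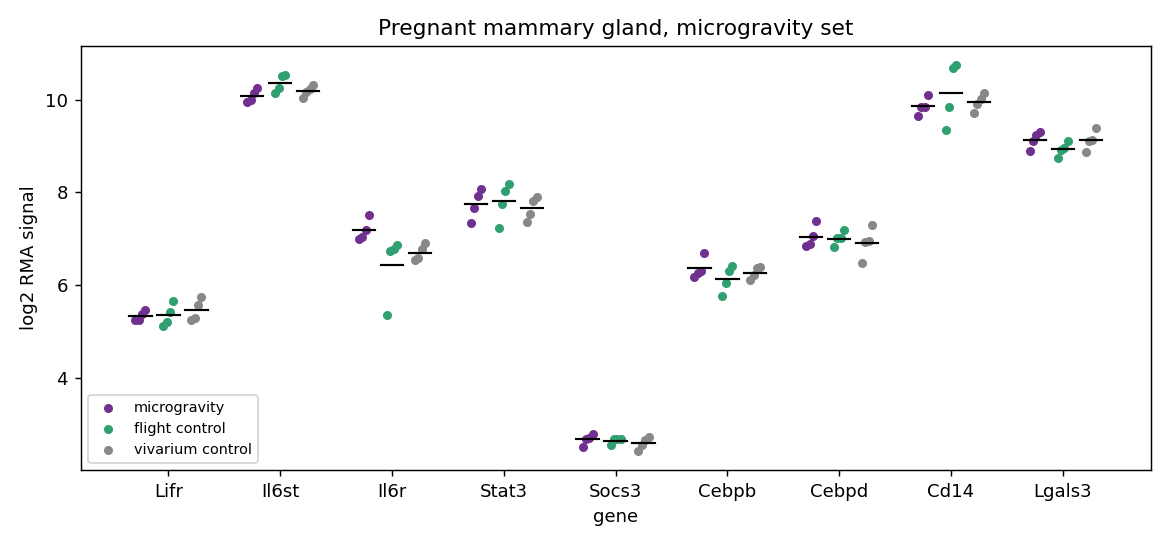
Log2 RMA signal (vertical axis) of the 9 genes (horizontal axis) in pregnant mammary gland of the microgravity set. Points are arrays (n = 4 per group) and lines group means. The microgravity arrays of Il6r, which was not called, lie above both controls, and the groups of the other genes overlap.

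Between tissues, as means over the 4 stage and gravity groups, all 9 genes were called for mammary gland against liver, 4 higher and 5 lower (32.1% and 34.4% of all probe sets). Adipose tissue against liver gave 3 higher and 4 lower (28.9% and 32.8%). Mammary gland against adipose tissue gave 4 higher and 3 lower (26.4% and 25.6%). With so many probe sets called, these counts single out no member. The means include liver Lifr and the lactating mammary arrays, on which members were selected. Calls that rest on these values, of Lifr in liver and of Stat3, Cd14 and Lgals3 in mammary gland, are descriptions. The receptors Lifr and Il6r were higher in liver. Mammary gland minus liver was -3.30 for Lifr (4.81 against 8.11, SE 0.16) and -2.18 for Il6r (6.12 against 8.31, SE 0.16, limma adjusted p = 3.4e-17). The shared chain Il6st was at 10.54 in liver, 10.38 in adipose tissue and 9.97 in mammary gland. Lgals3 was 6.56 in liver, 9.07 in mammary gland and 9.93 in adipose tissue, and Cd14 8.19, 9.94 and 8.93. Cebpd was 4.42 in liver, 5.55 in mammary gland and 4.84 in adipose tissue.

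Liver Lifr and the mammary genes could be set side by side in 19 rats. The 4 lactating hypergravity rats with both arrays (L203H, L206H, L212H and L217H) had liver Lifr of 4.48, 5.57, 4.54 and 4.85 and mammary Stat3 of 9.12, 7.54, 8.34 and 9.36. The other 15 rats had liver Lifr of at least 7.42 and mammary Stat3 of at most 7.46. As the groups form separate clusters, no pooled correlation is given, and deviations from the group means were correlated instead, over rats within groups.

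**Figure D5:**
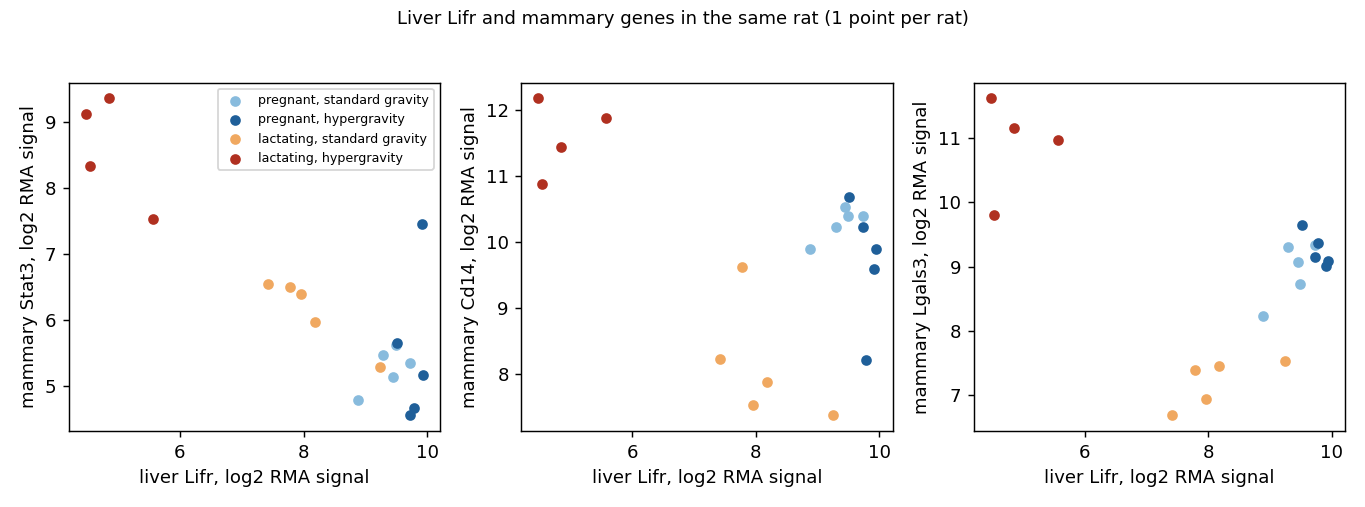
Liver Lifr (horizontal axes) against mammary Stat3, Cd14 and Lgals3 (vertical axes), log2 RMA signal, 1 point for each of 19 rats. The 4 lactating hypergravity rats lie at the upper left of every panel, apart from the other 15.

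Of 6 relations within groups 1 passed, for Cebpb: r = -0.48 (permutation p = 0.0041, adjusted p = 0.024) and Spearman rho = -0.46 (permutation p = 0.045, adjusted p = 0.27). Without the 2 rats farthest from the median of liver Lifr it was r = -0.51 (permutation p = 0.088, adjusted p = 0.53), so the call was lost while r was of similar size. Without the 4 rats whose mammary array carried markers of another tissue it was r = -0.55 (permutation p = 0.0052, adjusted p = 0.031) and rho = -0.66 (permutation p = 0.013, adjusted p = 0.079). For Stat3 r was -0.34 (rho -0.35, adjusted p = 0.31 and 0.51 by permutation), 0.16 without those 2 rats, and -0.65 (permutation p = 0.036, adjusted p = 0.11) without the same 4 rats. For Lgals3 r was 0.35 (rho 0.21, adjusted p = 0.42 and 0.87), for Socs3 0.24 (rho 0.08, 0.42 and 0.9), for Cd14 -0.23 (rho -0.10, 0.52 and 0.9) and for Cebpd -0.03 (rho 0.02, 0.91 and 0.93), all by permutation. No relation of liver Lifr with mammary Stat3, Cd14 or Lgals3 within groups passed the test.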

How the data were processed

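The authors deposited log2 signals per probe set from RMA, a standard method that sums up each probe set over its probes, per the submitters' processing notes, with no version given in the sources used here; 0 columns were unused, and no pair of arrays was identical (0 pairs). Per the labels' protocols, RNA was extracted by different kits from adipose tissue and from the other tissues. Groups came from sample titles. limma 3.58.1 in R 4.3.3 (lmFit, group means, eBayes) was fitted on all 31042 probe sets to 19 mammary, 20 liver, 19 adipose and 12 microgravity set arrays and to 58 arrays for tissues, two-sided, with Benjamini-Hochberg adjustment over all probe sets of a comparison and calls at adjusted p under 0.05. No probe set was filtered. A gene has its brightest single-symbol probe set over the 58 arrays. All members are named, and up to 4 called genes with the largest fold of each pathway list. The relations over rats used 100000 permutations within groups, two-sided. The members, the pathway and marker lists and the tests were chosen with earlier results of these data known. Fits were tested on simulated data. Alternatives were array weights, trend and robust settings, both left-out arrays kept, arrays carrying markers of another tissue left out, only the groups compared, median centring, a filter on dim probe sets, the mean of a gene's probe sets, blocks, and leaving out each array. Rats of the same code deviated together across tissues (median r = 0.13 over 57 pairs, 40 above 0.1, against -0.01 for other rats), and pair the samples because the array codes give the same rat.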

Additional observations from a re-analysis of the deposited data

Results flagged for a closer look

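Of 135 pairs of a gene and a group, 10 held an array that stood apart from the rest of its group, and chance gives about 1 in 20. In mammary gland Lifr was 4.54 in M42S (others of its group 5.33 to 5.54) and Cebpd 4.92 in M60H (5.69 to 6.01). In the flight control Il6r was 5.35 in FDSD (6.74 to 6.86) and Socs3 2.55 in FDSB (2.68 to 2.69). In liver Socs3 was 3.79 in L55H (3.08 to 3.20), Cebpb 5.48 in L217H (4.85 to 5.02) and 5.58 in L56H (5.06 to 5.17), and Cebpd 3.92 in L202S (4.36 to 4.48), the rat whose liver Lifr was the highest of its group. In adipose tissue Il6st was 10.26 in A206H (10.63 to 10.70) and Cebpb 6.28 in A60H (4.67 to 5.13).

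In mammary gland Cd14 and Lgals3 had opposite stage differences at the different gravities, with no overlap of the arrays used in either. For Cd14 the stage differences were -2.16 and 1.87, a gap of -4.03, and for Lgals3 -1.73 and 1.63, a gap of -3.36. A210H, left out, carried milk protein markers and had Cd14 at 9.87 and Lgals3 at 8.98. Pregnant hypergravity glands had 8.22 to 10.68 and 9.01 to 9.64. With A210H taken as a mammary array, the hypergravity groups would overlap. The difference between the stage effects was not tested, since the same arrays chose these genes. Luminal epithelium markers also went both ways. With lactation 4 of 6 were called lower at standard gravity (25.7% of all genes) and 2 of 6 higher in hypergravity (13.5%).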

How the results depend on the processing

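The members' called differences, and the liver Lifr stage difference at standard gravity, were recomputed under the alternatives, which gave 1997 values, of which 0 reversed direction. Differences that were not called were not recomputed. Another probe set of a gene taken alone was not an alternative. Its sign could differ, as for the mammary stage difference of Lifr at standard gravity. The count of members called for hypergravity in lactating mammary gland, 5, was 3 with trend and robust settings and ranged from 3 to 6 when 1 array was left out (3 without M203H, M217H or M202S); it was 7 with array weights. Without the 2 rats whose liver Lifr deviated most from its group mean, the within-group r was 0.16 for Stat3 and 0.18 for Cebpd, both reversed. For Cebpb it was -0.51, no longer called. The cause was not tested. The call of Cebpb between mammary gland and liver ended with median centring (0.23, adjusted p = 0.054), and that of Cebpd between adipose tissue and liver with the mean of its probe sets (0.12, adjusted p = 0.21). The replicate block by rat left 9, 7 and 7 members called between tissues, as without it. In the microgravity set letters did not deviate together (median r = -0.08 over 12 pairs, 0 above 0.1), and the replicate block by letter gave 0 called members in each of the 3 comparisons.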

Other observations

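The arrays left out gave these values. M210H, labelled lactating hypergravity mammary gland, had Cd14 at 10.04, Lgals3 at 10.22 and Stat3 at 7.05. Labelled adipose tissue, A210H had 9.87, 8.98 and 7.31. The valid mammary arrays of that group ran from 10.89 to 12.18, from 9.80 to 11.61 and from 7.54 to 9.36 for these genes, and the valid adipose arrays from 8.38 to 9.44, from 9.95 to 10.58 and from 6.38 to 7.67. Liver array L210H of the same rat had the highest Lifr of its group, 6.45.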
